A study of Mus musculus with 9 samples.

Results

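Dendritic cell genes were followed in 9 orthotopic Hepa1-6 tumors of the mouse liver. The set holds 10 genes named for this work: Xcr1, Clec9a, Batf3, Irf8, Itgae, Itgax, Flt3, Cd209a, Siglech and Zbtb46, out of 52161 gene symbols in the tables. A gene was found by its symbol in the list of gene names that each entry of a tumor's table carries, and its value was the summed FPKM (fragments scaled by transcript length and by the mapped fragments of the library) of those entries. Values were found for 9 of the 10 genes. Irf8 was not analysed here.

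Hepa1-6 is a mouse hepatoma cell line. Pieces of subcutaneous Hepa1-6 tumors were implanted into the left liver lobe of male C57BL/6 mice, 6 to 8 weeks old, so that every group carried the same tumor in animals with an intact immune system. Each mouse received 5 intraperitoneal injections, one every 4 days, the first on day 10 and the last on day 26. Collection of the tumors, freed of surrounding tissue, followed on day 27. The PBS group received the vehicle only. The other animals received an antibody to PD-1 (clone RMP1-14), which blocks an inhibitory receptor of T cells, and their largest and smallest tumors at collection formed the nonresponsive and responsive groups. Each group held 3 tumors, each from 1 mouse, and antibody-treated mice with an intermediate response were left out. Since size chose the antibody groups, tumor size and response cannot be told apart in any comparison below.

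Dendritic cells take up antigen and present it to T cells. The cDC1 subset cross-presents antigen of dead cells to CD8+ T cells and depends on the transcription factors BATF3 and IRF8, and its surface carries the chemokine receptor XCR1, the dead cell receptor CLEC9A and, in tissues, the integrin CD103, encoded by Itgae. The cDC2 subset mainly primes CD4+ T cells, and plasmacytoid dendritic cells are known for their production of type I interferon. FLT3 is the receptor of the growth factor on which all of these subsets depend. In liver tumors, as in other tissues, dendritic cells are few beside macrophages, and several of the genes are also read in other cells: Itgax in macrophages, Flt3 in lymphoid progenitors, Itgae in T cells and Zbtb46 in endothelium.

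Relative depth, read from the steps of low values, was 0.936 to 1.07 times that of PBS tumor 1. The search covered only depths near that of PBS tumor 1, so it could not show whether the tumors had similar depth. Between 12533 and 13328 named entries reached 1 FPKM. Entries with no gene name took from 19.2% to 81.5% of the summed FPKM of a tumor, and their part in the scale of the named genes was not tested. Ptprc, which encodes the CD45 antigen of all leukocytes, ran from 24.6 FPKM in PBS tumor 1 to 102 FPKM in nonresponsive tumor 1. Hepatocyte markers summed to 653 to 6426 FPKM in PBS tumors, 4378 to 14258 in nonresponsive tumors and 11624 to 25709 in responsive tumors, so the groups differed in their hepatocyte signal. Sums of markers join genes that share an entry. In bulk tissue, fewer cells of a type and less RNA per cell cannot be told apart.

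Of the 9 genes, 2 were higher in every responsive tumor than in all 6 other tumors: Flt3 and the entry that Clec9a shares with Clec1b. The same held for 529 of 14472 features, or 3.66%. None of the 9 genes was lower in all responsive tumors than in the rest, where 378 of the 14472 features were. The other 7 genes overlapped between the responsive and the other groups. No gene of the set passed an adjusted p of 0.05 (limma with Benjamini-Hochberg adjustment over all features) in any comparison.

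**Figure D1:**
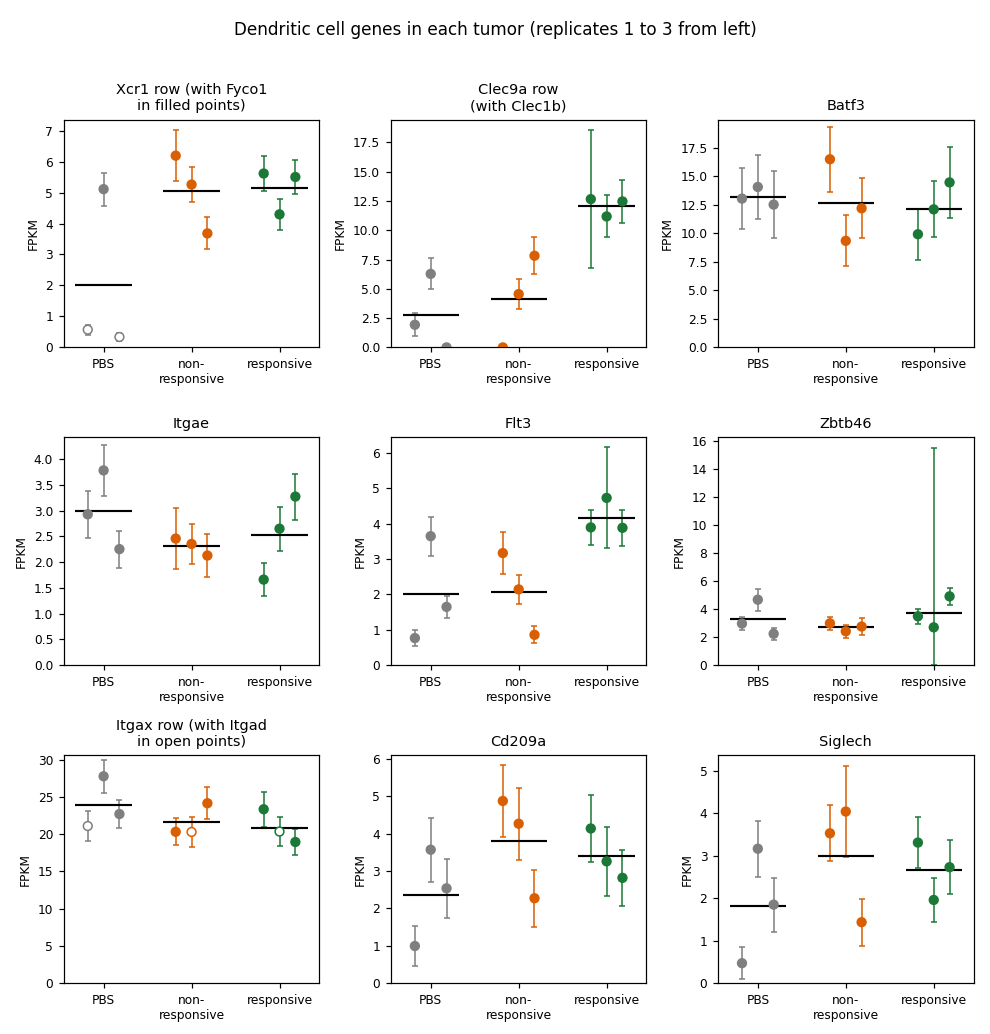
FPKM (vertical axis, linear, from 0) of each dendritic cell gene in PBS, nonresponsive and responsive tumors (horizontal axis). Each point is 1 tumor, vertical lines are the Cufflinks confidence intervals of the deposited tables, and black lines are group means; responsive tumors lie above the other 6 tumors for Flt3 (3.88 to 4.72 FPKM) and for the Clec9a entry (11.2 to 12.7 FPKM), and the open points of Xcr1 are the 2 PBS tumors in which it had an entry of its own.

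Per length, Itgax was the most abundant of the genes, with a mean of 22.1 FPKM over the 9 tumors (SD 2.71), followed by Batf3 with 12.7 FPKM (SD 2.21). Clec9a with Clec1b (mean 6.32 FPKM, SD 5.08) and the Xcr1 entries (mean 4.06 FPKM, SD 2.17) came next. The Xcr1 entry included Fyco1 in 7 of the 9 tumors, so its mean and SD mix entries with and without that gene. Zbtb46 (3.24 FPKM, SD 0.950), Cd209a (3.19 FPKM, SD 1.19), Flt3 (2.75 FPKM, SD 1.44), Itgae (2.61 FPKM, SD 0.638) and Siglech (2.50 FPKM, SD 1.15) lay so close that neighbors in this order differed by less than their spread. The mean of Itgax ranked at percentile 67.9 and that of Siglech at percentile 15.2 among the 14472 features with at least 1 FPKM in 3 tumors. The genes also differed in how far tumors lay apart. The highest over the lowest tumor was 1.47 for Itgax, 1.77 for Batf3, 2.19 for Zbtb46 and 2.28 for Itgae, against 4.92 for Cd209a, 6.16 for Flt3 and 8.64 for Siglech.

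Of the 2 surface receptors that define cDC1, neither could be read on its own. In the annotation of build GRCm38, Clec9a (chromosome 6, 129408862 to 129424763, plus strand) overlaps the end of Clec1b (129397297 to 129409335) by 474 bases on the same strand, and every tumor's table gave them 1 joint entry. Clec1b encodes CLEC-2, a receptor of platelets and of Kupffer cells, the resident macrophages of the liver. Xcr1 (chromosome 9, 123852315 to 123862029, minus strand) lies 415 bases from Fyco1 on the same strand, which encodes an adaptor of autophagosome transport. The 2 genes shared an entry in 7 of the 9 tumors.

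Clec9a with Clec1b was listed at 1.93, 6.28 and 0 FPKM in the PBS tumors, at 0, 4.55 and 7.83 FPKM in the nonresponsive tumors and at 12.7, 11.2 and 12.5 FPKM in the responsive tumors. All responsive tumors were above all others, and 1 tumor of each other group was listed at 0. Both of these values had Cufflinks bounds of 0 and 0, and whether they mark absence was not tested. Against PBS tumors the joint entry was higher in responsive tumors by 2.24 on the log2(FPKM + 1) scale (SE 0.709, 95% interval 0.48 to 4.0, limma adjusted p = 0.281), which was the single one of the 9 genes past an unadjusted p of 0.05 in that comparison. Against nonresponsive tumors it was 1.84 higher, with an interval of -0.14 to 3.81 (limma adjusted p = 0.885). The call against PBS was lost without any 1 of the responsive tumors (difference 2.21 to 2.29), and against nonresponsive tumors a call was gained without nonresponsive tumor 1 (difference 0.90) or 3 (2.47). Nonresponsive tumors differed from PBS tumors by 0.40, with an interval of -2.23 to 3.03.

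Genes of Kupffer cells and platelets, the other cells known for Clec1b, were read beside this entry in 2 lists added after its values were seen. The 6 Kupffer cell genes summed to 4.52 to 118 FPKM in PBS tumors, 85.3 to 250.5 FPKM in nonresponsive tumors and 119 to 333 FPKM in responsive tumors. All 5 tested were higher in responsive than in PBS tumors, with a median difference of 2.2 on the log2(FPKM + 1) scale, and none passed an unadjusted p of 0.05. Clec4f, a lectin of Kupffer cells, was at 1.14, 13.4 and 37.2 FPKM in PBS tumors, 77.0, 27.2 and 19.4 FPKM in nonresponsive tumors and 61.9, 33.6 and 72.5 FPKM in responsive tumors. Nonresponsive tumor 1, listed at 0 for Clec9a with Clec1b, thus held the highest Clec4f value. Folr2, a receptor of resident macrophages, was listed at 0 in 5 tumors. The 6 platelet and megakaryocyte genes summed to 61.6 to 256 FPKM in PBS tumors, 136 to 616 FPKM in nonresponsive tumors and 163 to 409.99 FPKM in responsive tumors, and none of the 3 tested passed that p in any comparison. The part of these cells, and of hepatocytes, in the joint entry was not tested.

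Xcr1 had an entry of its own in PBS tumor 1 (0.573 FPKM) and PBS tumor 3 (0.336 FPKM), where the entry of Fyco1 stood at 3.76 and 3.84 FPKM. With Fyco1, the entry was at 5.11 FPKM in PBS tumor 2, at 6.19, 5.26 and 3.68 FPKM in nonresponsive tumors and at 5.61, 4.296 and 5.50 FPKM in responsive tumors. The 2 low values are therefore those of the tables that split the genes. Read by the gene's name, responsive and nonresponsive tumors stood 1.38 (interval -0.12 to 2.89) and 1.35 (interval -0.19 to 2.88) above PBS tumors on the log2(FPKM + 1) scale. With both genes joined in every tumor, the means were 4.54 ± 0.50 FPKM in PBS, 5.04 ± 1.27 FPKM in nonresponsive and 5.14 ± 0.731 FPKM in responsive tumors (SD, n = 3 each). The 3 means lay closer together than the SD of either antibody group, while the differences from PBS tumors reached the SD of the PBS group. Between responsive and nonresponsive tumors, where every entry was joint, the difference was 0.038 (interval -0.55 to 0.62).

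Batf3 and Itgae, the other cDC1 genes, had entries of their own. Batf3 was at 13.04, 14.1 and 12.5 FPKM in PBS tumors, 16.5, 9.34 and 12.2 FPKM in nonresponsive tumors and 9.92, 12.1 and 14.5 FPKM in responsive tumors. Each group overlapped the others. Responsive tumors differed from nonresponsive tumors by -0.036 (interval -0.69 to 0.62) and from PBS tumors by -0.12 (interval -0.57 to 0.32) on the log2(FPKM + 1) scale. Itgae was at 2.93, 3.78 and 2.25 FPKM in PBS tumors, 2.46, 2.35 and 2.13 FPKM in nonresponsive tumors and 1.66, 2.65 and 3.27 FPKM in responsive tumors. Its lowest and its second highest value were both in responsive tumors, and the groups again overlapped, with a difference of responsive from nonresponsive tumors of 0.065 (interval -0.53 to 0.66).

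Flt3 was the gene of the set that separated responsive from nonresponsive tumors past an unadjusted p of 0.05. It stood at 0.766, 3.64 and 1.65 FPKM in PBS tumors, at 3.17, 2.14 and 0.858 FPKM in nonresponsive tumors and at 3.89, 4.72 and 3.88 FPKM in responsive tumors. Responsive tumors were close together and above all others, while PBS and nonresponsive tumors covered the same range. The group means were 2.02 ± 1.47, 2.06 ± 1.16 and 4.16 ± 0.484 FPKM in PBS, nonresponsive and responsive tumors (SD, n = 3 each). Responsive tumors were 0.83 above nonresponsive tumors on the log2(FPKM + 1) scale (SE 0.335, interval 0.0073 to 1.65, limma adjusted p = 0.885). Against PBS tumors the difference was 0.88 (SE 0.374, interval -0.042 to 1.81, limma adjusted p = 0.293), and nonresponsive tumors differed from PBS tumors by 0.054 (interval -1.11 to 1.22). The first of these calls was kept without nonresponsive tumor 1 (difference 1.09) and lost without any 1 of the other 5 tumors (0.51 to 0.89), and it was lost when the named entries of each tumor were rescaled to the same sum (0.58). The difference from PBS tumors was called without PBS tumor 2 (1.25).

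Markers of B cells, whose early progenitors also carry Flt3, moved with the same groups. The 9 B cell markers summed to 39.7 to 112 FPKM in PBS tumors, 57.1 to 78.7 FPKM in nonresponsive tumors and 106 to 282 FPKM in responsive tumors. Between responsive and nonresponsive tumors, 8 of the 9 tested stood higher in the responsive group, 7 of them past an unadjusted p of 0.05, with a median difference of 1.68 on the log2(FPKM + 1) scale. Of the defining markers, Cd79a was listed at 0 in nonresponsive tumor 1. Responsive tumor 2, the highest for Flt3, was the lowest of its group for the summed B cell markers. The part of B lineage cells in the Flt3 values was not tested.

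The promoter of Flt3 is printed because this gene, read in an entry of its own, was the one member past an unadjusted p of 0.05 between responsive and nonresponsive tumors, with the limits given above. It covers the 250 bases before the gene's start in RefSeq (build GRCm38, minus strand, chr5:147400490-147400739). The promoter of Itgax (plus strand, chr7:128129300-128129549) stands beside it as that of the gene with the least variation between tumors, and capitals mark its AP-1 letters, read as TGANTCA.
Flt3: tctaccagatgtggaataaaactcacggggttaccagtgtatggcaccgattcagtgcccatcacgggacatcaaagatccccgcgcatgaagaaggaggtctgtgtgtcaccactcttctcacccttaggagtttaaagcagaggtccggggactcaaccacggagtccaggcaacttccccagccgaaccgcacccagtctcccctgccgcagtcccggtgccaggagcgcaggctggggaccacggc
Itgax: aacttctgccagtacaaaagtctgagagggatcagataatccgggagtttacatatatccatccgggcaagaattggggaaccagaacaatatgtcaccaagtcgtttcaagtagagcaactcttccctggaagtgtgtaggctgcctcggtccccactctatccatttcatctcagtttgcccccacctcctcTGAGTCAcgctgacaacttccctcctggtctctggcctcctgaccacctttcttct
BATF3 is a factor of the AP-1 family. RefSeq gave promoter windows for 8 of the 9 genes, and each was searched on both strands for TGANTCA, for an ETS-IRF composite (GGAA, any 2 bases, GAAA), for an IRF element (GAAA, any 2 bases, GAAA) and for the PU.1 letters GAGGAAGT. The composite and IRF letters can overlap each other. TGANTCA occurs in 6.75% of 32851 promoter windows of this length, the ETS-IRF composite in 2.30%, the IRF element in 2.98% and GAGGAAGT in 2.44%. In the windows of the dendritic cell genes, TGANTCA was found once each for Itgax and Zbtb46, and none of the other letters was found. A match of letters is a description and not a binding site.

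Zbtb46, a transcription factor of conventional dendritic cells, was at 2.97, 4.67 and 2.24 FPKM in PBS tumors, 2.99, 2.42 and 2.76 FPKM in nonresponsive tumors and 3.49, 2.70 and 4.91 FPKM in responsive tumors. The Cufflinks interval of responsive tumor 2 ran from 0 to 15.5 FPKM, so that value is poorly determined. Responsive tumors differed from nonresponsive tumors by 0.31 (interval -0.28 to 0.90) and from PBS tumors by 0.14 (interval -0.58 to 0.87) on the log2(FPKM + 1) scale. The 10 endothelial markers, whose cells also carry Zbtb46, summed to 105 to 200 FPKM in PBS tumors, 127 to 269 FPKM in nonresponsive tumors and 140 to 225 FPKM in responsive tumors, and none passed an unadjusted p of 0.05 in any comparison.

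Itgax, which encodes CD11c, was at 21.1, 27.8 and 22.7 FPKM in PBS tumors, 20.3, 20.3 and 24.1 FPKM in nonresponsive tumors and 23.3, 20.3 and 18.9 FPKM in responsive tumors. It shared its entry with Itgad, an integrin gene next to it, in 1 tumor of each group, and joining the 2 genes in all tumors moved no group mean by more than its spread. Responsive tumors differed from nonresponsive tumors by -0.046 (interval -0.49 to 0.40) and from PBS tumors by -0.18 (interval -0.61 to 0.25). Macrophages also carry CD11c. The 12 macrophage markers summed to 1328 to 3636 FPKM in PBS tumors, 2957 to 6885 FPKM in nonresponsive tumors and 2785 to 8681 FPKM in responsive tumors, all 12 were higher in nonresponsive than in PBS tumors (median difference 0.96, 3 past an unadjusted p of 0.05), and Itgax differed there by -0.13 (interval -0.59 to 0.32). Among those 3 were C1qb and C1qc, which shared 1 entry in nonresponsive tumors 1 and 2 (868.5 and 972 FPKM for both genes). In PBS tumors the 2 genes had separate entries, so their calls compare unlike entries.

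Cd209a, a lectin of cDC2 and monocyte-derived dendritic cells, was at 0.992, 3.57 and 2.54 FPKM in PBS tumors, 4.88, 4.27 and 2.27 FPKM in nonresponsive tumors and 4.14, 3.26 and 2.82 FPKM in responsive tumors. PBS tumor 1 was the lowest of the 9, and the groups overlapped. Nonresponsive and responsive tumors stood 0.55 (interval -0.44 to 1.54) and 0.46 (interval -0.40 to 1.32) above PBS tumors on the log2(FPKM + 1) scale, and they differed from each other by -0.092 (interval -0.81 to 0.62). Without PBS tumor 1 the differences from PBS tumors were 0.21 and 0.12, and without PBS tumor 2 they were 0.81 and 0.72.

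Siglech, a receptor of plasmacytoid dendritic cells, was at 0.468, 3.17 and 1.85 FPKM in PBS tumors, 3.53, 4.05 and 1.44 FPKM in nonresponsive tumors and 3.31, 1.96 and 2.73 FPKM in responsive tumors. It was lowest in the same PBS tumor. Nonresponsive and responsive tumors stood 0.56 (interval -0.64 to 1.76) and 0.48 (interval -0.56 to 1.52) above PBS tumors, and they differed from each other by -0.075 (interval -0.92 to 0.77). Without PBS tumor 1 the differences from PBS tumors were 0.15 and 0.073, and without PBS tumor 2 they were 0.90 and 0.83.

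**Figure D2:**
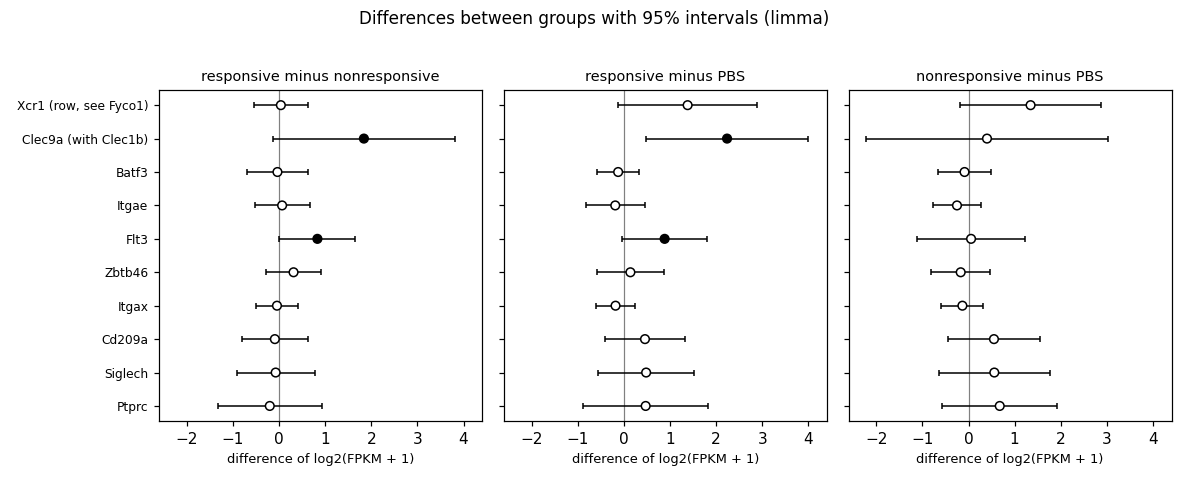
Differences of log2(FPKM + 1) (horizontal axis) for each dendritic cell gene and Ptprc (vertical axis) in the 3 comparisons, with 95% intervals from limma. Filled points are genes whose 2 groups do not overlap, which are Flt3 and Clec9a with Clec1b in the first 2 panels and none in the third; Xcr1 against PBS mixes entries with and without Fyco1.

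Taken by comparison, 1 of the 9 genes (Flt3) passed an unadjusted p of 0.05 between responsive and nonresponsive tumors, where 5.49% of 13843 features did, and 0.116% passed an adjusted p of 0.05. Groups did not overlap for 2 of the 9, against 10.5% of all features. Between responsive and PBS tumors 1 of the 9 passed (Clec9a with Clec1b), where 17.2% of 13850 features did and 0.231% passed after adjustment, and 2 of the 9 did not overlap against 28.0% of all. Between nonresponsive and PBS tumors no gene of the set passed by limma, adjusted or not, and none was free of overlap, where 3.22% of 13804 features passed, 0.0797% passed after adjustment and 8.20% did not overlap. The median difference of the 9 genes was 0.038, 0.46 and 0.054 in the 3 comparisons, beside -0.066, -0.11 and -0.057 over all features tested. The 0.46 for responsive minus PBS tumors includes the mixed Xcr1 entries. With genes that share entries joined in every tumor, it was 0.14, beside -0.11 over all features. The median for responsive minus nonresponsive tumors was 0.0054 to 0.16 with a tumor left out. It was -0.25 when named entries were rescaled to the same sum, where that of all features was -0.37. The 2 comparisons with PBS share their control tumors. An exact permutation test of 3 against 3 tumors cannot go below p = 0.1, and Flt3 and the Clec9a entry reached that value in both comparisons with responsive tumors.

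Levels were also set against Ptprc, so that each gene was read relative to the leukocyte signal of its own tumor. The median over the 9 genes of the differences between groups was then 0.24 for responsive minus nonresponsive, -0.015 for responsive minus PBS and -0.62 for nonresponsive minus PBS tumors. The first was -0.13 without responsive tumor 2 and -0.44 with T cell markers in place of Ptprc, and the second ran from -0.40 without responsive tumor 2 to 0.23 without responsive tumor 3. Siglech minus Ptprc, on the log2(FPKM + 1) scale, was -4.13, -4.24 and -4.29 in PBS tumors, -4.51, -4.16 and -4.34 in nonresponsive tumors and -4.29, -3.69 and -4.65 in responsive tumors. Both the lowest and the highest of these values were in responsive tumors, and the group means were -4.22, -4.34 and -4.21. Cd209a minus Ptprc had group means of -3.93 ± 0.217, -4.05 ± 0.116 and -3.94 ± 0.728 in PBS, nonresponsive and responsive tumors (SD, n = 3 each). Across the 9 tumors, Siglech and Ptprc had a Pearson r of 0.927 (exact permutation p = 0.00116, adjusted over the 9 genes 0.0104) and a Spearman rho of 0.817 (exact permutation p = 0.0108, adjusted 0.0485). Without PBS tumor 1 and responsive tumor 2, the 2 farthest from the median of Ptprc, r was 0.908. Cd209a and Ptprc had an r of 0.835 (exact permutation p = 0.0054, adjusted 0.0243) and a rho of 0.750 (exact permutation p = 0.0255, adjusted 0.0765), and an r of 0.818 without those tumors. Within the responsive group, however, tumor 3 had the highest Ptprc value (92.7 FPKM) and the lowest Cd209a value (2.82 FPKM). The tumors share 1 FPKM scale each, and within groups of 3 no correlation could be tested. The permutations shuffled tumors across the 3 groups, and how many of all features follow Ptprc as closely was not tested.

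Flt3 minus Ptprc behaved otherwise. It was -3.86, -4.09 and -4.40 in PBS tumors, -4.63, -4.85 and -4.73 in nonresponsive tumors and -4.10, -2.74 and -4.26 in responsive tumors. Nonresponsive tumors were below all others. The difference was 1.03 between responsive and nonresponsive tumors and -0.62 between nonresponsive and PBS tumors, each at the smallest exact permutation p of 0.1, and 0.41 between responsive and PBS tumors (exact permutation p = 0.7). Mean Ptprc was 52.4 FPKM in PBS, 79.9 FPKM in nonresponsive and 71.0 FPKM in responsive tumors. Flt3 itself differed by 0.054 between nonresponsive and PBS tumors. The part of Ptprc in this separation, and the share of all features separated on this scale, were not tested. Flt3 and Ptprc had an r of 0.541 (exact permutation p = 0.131, adjusted 0.296) and a rho of 0.317 (exact permutation p = 0.41, adjusted 0.561), and r was 0.825 without PBS tumor 1 and responsive tumor 2. Responsive tumor 2 had the highest Flt3 value (4.72 FPKM) beside the second lowest Ptprc value (37.3 FPKM). The mixed Xcr1 entries had an r of 0.689 (exact permutation p = 0.0396, adjusted 0.119) and a rho of 0.833 (exact permutation p = 0.00827, adjusted 0.0485), with an r of 0.688 without those 2 tumors. For Clec9a with Clec1b, Batf3, Itgae, Zbtb46 and Itgax r lay between -0.060 and 0.369, with adjusted exact permutation p of 0.584 to 0.964.

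**Figure D3:**
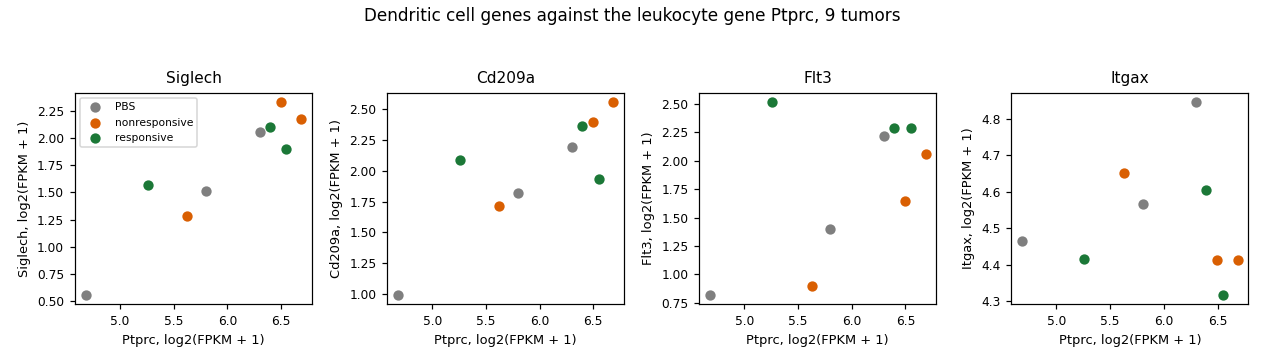
log2(FPKM + 1) of Siglech, Cd209a, Flt3 and Itgax (vertical axes) against that of Ptprc (horizontal axes), 1 point per tumor, colored by group. Siglech (r = 0.927) and Cd209a (r = 0.835) climb with Ptprc, Flt3 (r = 0.541) has 1 responsive tumor far above the others at low Ptprc, and Itgax (r = -0.017) shows no slope.

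The promoters of Siglech (RefSeq, GRCm38, plus strand, chr7:55767934-55768183) and Cd209a (minus strand, chr8:3748985-3749234) are printed because these 2 genes had the highest Pearson correlations with Ptprc over the 9 tumors. Neither held any of the 4 sets of letters searched.
Siglech: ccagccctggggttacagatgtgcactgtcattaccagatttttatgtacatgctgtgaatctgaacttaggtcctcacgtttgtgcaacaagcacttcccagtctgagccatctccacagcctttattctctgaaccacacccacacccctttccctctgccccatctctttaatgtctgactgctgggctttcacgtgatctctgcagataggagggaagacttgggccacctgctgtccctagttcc
Cd209a: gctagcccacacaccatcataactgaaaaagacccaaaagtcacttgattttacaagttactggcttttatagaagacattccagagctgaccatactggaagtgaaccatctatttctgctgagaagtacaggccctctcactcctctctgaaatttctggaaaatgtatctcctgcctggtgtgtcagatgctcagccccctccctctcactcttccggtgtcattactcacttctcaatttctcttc

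Other genes of the same cells were read from lists. Of 12 other cDC1 genes, 11 were tested between responsive and nonresponsive tumors, 2 passed an unadjusted p of 0.05 and both were lower in responsive tumors. Naaa, a lysosomal amidase abundant in cDC1, was at 31.1, 38.9 and 34.02 FPKM in PBS tumors, 42.5, 63.2 and 69.2 FPKM in nonresponsive tumors and 27.9, 23.9 and 38.0 FPKM in responsive tumors. Its nonresponsive tumors were above all others, with a difference of -0.93 (SE 0.282) for responsive minus nonresponsive tumors (limma adjusted p = 0.885) and of 0.71 (SE 0.241) for nonresponsive minus PBS tumors (limma adjusted p = 0.718). The second was the entry of Ifi205, an interferon-inducible gene, which joins 7 further genes of its cluster, among them Ifi204 and Mndal, and differed by -0.86 and 0.52 in the same comparisons (SE 0.247 and 0.202), past an unadjusted p of 0.05 in both. Plet1 (-1.04, SE 0.239) and Cd24a (-0.40, SE 0.157), also read in epithelial cells, were lower in nonresponsive than in PBS tumors past an unadjusted p of 0.05. Cadm1, an adhesion molecule of cDC1 and of many other cells, was lower in responsive than in PBS tumors by 1.46 (SE 0.567, past an unadjusted p of 0.05) with overlapping groups. The median of the list was -0.27, -0.20 and -0.035 in the 3 comparisons. None of the 11 tested was called higher in responsive tumors, against nonresponsive or PBS tumors. Macrophage markers had medians of -0.58 for responsive minus nonresponsive and 0.96 for nonresponsive minus PBS tumors. Which cells gave the Naaa values was not tested.

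Of 13 other cDC2 genes, 8 or 9 were tested. Mgl2, a lectin of cDC2 and of macrophages, was at 25.0, 28.6 and 20.8 FPKM in PBS tumors, 9.55, 19.0 and 20.2 FPKM in nonresponsive tumors and 7.15, 12.8 and 12.6 FPKM in responsive tumors. It was lower in responsive than in PBS tumors by 1.15 (SE 0.268, limma adjusted p = 0.281), with no overlap. The list also holds Clec12a, a lectin of cDC1, plasmacytoid and monocytic cells. Clec12a was higher in nonresponsive than in PBS tumors by 1.51 (SE 0.609, limma adjusted p = 0.718), and which cells gave its values was not tested. No gene of this list passed an unadjusted p of 0.05 between responsive and nonresponsive tumors by limma, where the median was -0.45 and 3 of 8 were higher. After the rescaling, 2 of 9 passed that p, both lower in responsive tumors, 1 was higher and the median was -0.72. Cd209b, a relative of Cd209a, was listed at 0 in 7 of the 9 tumors.

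Of 15 genes of mature and migratory dendritic cells, 14 were tested between responsive and nonresponsive tumors, 10 were higher in responsive tumors (3 of 13 after the rescaling named above) and none passed an unadjusted p of 0.05 by limma. The chemokines CCL17 and CCL22, which draw T cells bearing CCR4, were the 2 that passed it elsewhere. Ccl22 was lower in nonresponsive than in PBS tumors by 0.61 (SE 0.216), and Ccl17 was lower in responsive than in PBS tumors by 1.48 (SE 0.514, overlapping groups). Fscn1, an actin-bundling protein of migrating dendritic cells, stood at 63.9, 49.4 and 74.6 FPKM in responsive and 72.8, 57.2 and 34.6 FPKM in nonresponsive tumors, which overlapped.

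Of 10 other genes of plasmacytoid dendritic cells, 9 were tested and 2, Ly6d and Spib, stood higher in responsive than in nonresponsive tumors past an unadjusted p of 0.05. Spib, a transcription factor of plasmacytoid and B cells, was at 0.761, 7.44 and 3.83 FPKM in PBS tumors, 5.55, 3.86 and 1.88 FPKM in nonresponsive tumors and 14.8, 6.97 and 23.8 FPKM in responsive tumors (difference 1.70, SE 0.511, limma adjusted p = 0.885). Ly6d, a surface antigen of lymphoid progenitors and B cells, was higher by 1.70 as well (SE 0.426, limma adjusted p = 0.885), and Spib was also higher than in PBS tumors past an unadjusted p of 0.05 (1.82, SE 0.697). Both genes are also read in B cells, whose markers are given above, and Siglech differed there by -0.075. The other 7 tested genes gave no call in that comparison, and the median of the list was -0.39. Bst2, read in many cells under interferon, stood at 307 to 476 FPKM in nonresponsive and 312 to 621 FPKM in responsive tumors.

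Of 15 ligands, growth factors and receptor partners of dendritic cells, Cdh1 passed an unadjusted p of 0.05. Cdh1 encodes E-cadherin, which is also read in epithelial cells, and was at 1.44, 5.84 and 6.08 FPKM in PBS tumors, 8.30, 4.57 and 4.34 FPKM in nonresponsive tumors and 11.9, 9.76 and 13.4 FPKM in responsive tumors. It was higher in responsive tumors by 0.95 against nonresponsive (limma adjusted p = 0.885) and by 1.36 against PBS tumors (limma adjusted p = 0.281). After the rescaling named above, no gene of this list was called between responsive and nonresponsive tumors. Markers of hepatocytes, which are epithelial cells, moved with the same groups, and 10 of the 12 were called higher in responsive than in PBS tumors (median 2.8). Whether these markers came from hepatocytes or from the Hepa1-6 hepatoma cells was not tested, nor was the part of either in the Cdh1 values. E-cadherin is the ligand of CD103, whose gene Itgae gave no call in any comparison. The T cell chemokines Ccl5 and Cxcl9 were abundant and gave no call. Flt3l, the ligand of FLT3, shared its entry with the ribosomal gene Rpl13a at 2468 to 6431 FPKM, so its own level could not be read.

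**Figure D4:**
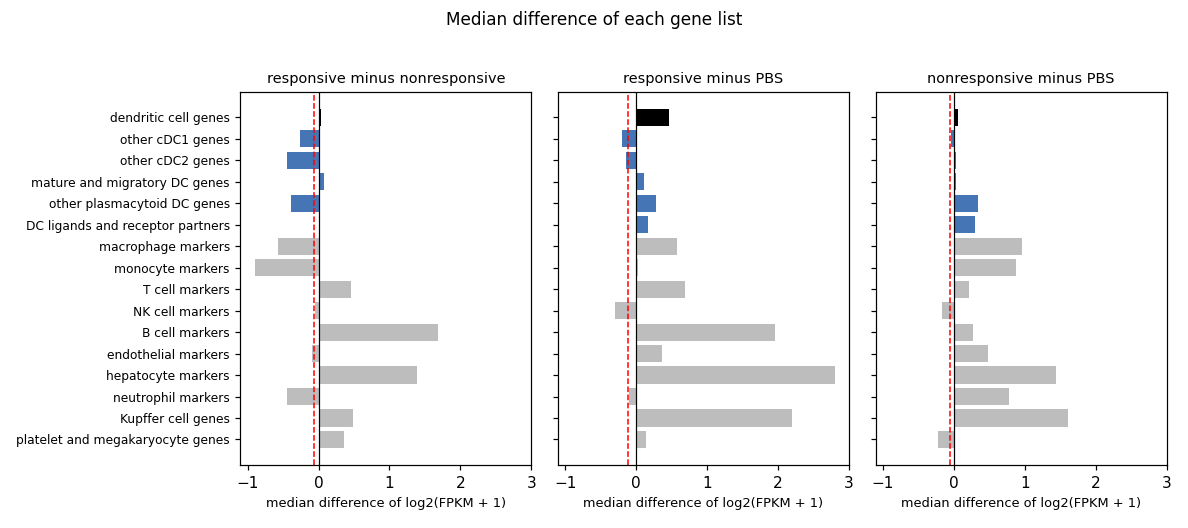
Median difference of log2(FPKM + 1) (horizontal axis) of the dendritic cell genes (black), of related dendritic cell lists (blue) and of marker lists of other cells (grey) in the 3 comparisons; the dashed line is the median of all features tested. B cell markers (1.68) and hepatocyte markers (1.39) stand farthest to the right between responsive and nonresponsive tumors, and the dendritic cell genes lie at 0.038.

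Markers of other immune cells were read in the same way. All 12 T cell markers stood above their nonresponsive level in responsive tumors, 4 past an unadjusted p of 0.05, with a median difference of 0.45, and their summed level was 182 to 250.02 FPKM against 134 to 162 FPKM. With the named entries of each tumor rescaled to the same sum, 10 of the 12 were higher, none passed that p by limma and the median was 0.19. Of 12 macrophage markers 1 stood higher in responsive tumors, with no call, and 1 was lower past that p (median -0.58), and of 7 monocyte markers 2 were lower (median -0.89). None of the 7 neutrophil markers passed it by limma in any comparison, and 1 of 6 tested NK cell markers was lower in responsive than in nonresponsive tumors. The 12 hepatocyte markers likewise all stood above that level, 4 past that p, with a median of 1.39 (1 past it and a median of 1.05 after the rescaling).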

How the data were processed

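RNA of 9 tumors was sequenced from TruSeq libraries. Per the labels, the authors aligned reads with TopHat2 2.1.1 and Bowtie2 2.2.4 and named build mm8. The deposited tables hold FPKM values that the authors made with Cufflinks for each tumor, with confidence bounds and no counts. Positions in the tables were not used, since they were not checked against that build, and precision is limited by 3 tumors per group. A table of the authors' own comparisons (fold changes and p-values) was not used.

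Each gene's FPKM was summed over the entries naming it. Features with at least 1 FPKM in at least 3 of 6 tumors were compared as log2(FPKM + 1) (pseudocount 1, which understates changes of low genes) with limma 3.58.1 in R 4.3.3 (lmFit, eBayes with trend) and Benjamini-Hochberg adjustment over all features. The script was tested on simulated data. Exact permutation tests were two-sided. Each group's tumors came from separate mice. From each list, the 3 most abundant genes and those with an unadjusted p under 0.05 could be named, others only where a count or listing at 0 called for it. Members and lists were chosen with earlier results of these data known, and the Kupffer cell and platelet lists were added after values were seen. Gene positions are from GENCODE M21 and promoters from RefSeq, both on GRCm38. Alternatives varied pseudocount, filter, scaling, tumors in the fit, shared entries, replicate block and left-out tumors.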

Additional observations from a re-analysis of the deposited data

How the results depend on the processing

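Between responsive and nonresponsive tumors, 0 of the 9 genes passed an unadjusted p of 0.05 by limma with all 9 tumors in 1 fit, a filter at 5 FPKM (4 genes tested, Flt3 not among them), no filter, a pseudocount of 0.1, rescaling of named entries to the same sum or the replicate block, and 0 to 2 passed with single tumors left out; no alternative gave an adjusted p under 0.05. Flt3 kept its direction there (0.51 to 1.15). Between responsive and PBS tumors, 2 passed in the fit of all 9 tumors (2057 of 13850 features), 0 with a pseudocount of 0.1 (2166 of 13850 features), 0 with single-gene entries (6 genes tested, 2042 of 10589 features) and 0 to 3 with a tumor left out. Between nonresponsive and PBS tumors, 1 (Xcr1, whose entries differ between tumors) passed in the fit of all 9 tumors (463 of 13804 features) and 1 after rescaling (510 of 13897 features), and 0 to 1 with a tumor left out. Rescaling moved the median of all features from -0.066 to -0.37 (responsive minus nonresponsive) and from -0.11 to -0.34 (responsive minus PBS), and turned Xcr1 (-0.25) and Itgae (-0.18) in the first and Zbtb46 (-0.060) in the second. T cell markers in place of Ptprc gave medians of -0.44 (responsive minus nonresponsive) and -0.11 (nonresponsive minus PBS). Macrophage markers in its place gave 0.51 (responsive minus nonresponsive). The cause of these changes was not tested.

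Of 380 differences of single genes under alternatives, 331 kept direction and call, most of them with no call to lose; counts of genes called and medians are not in this tally. Leaving out 1 tumor turned differences near 0. For responsive minus nonresponsive the ranges were -0.14 to 0.17 for Xcr1, -0.22 to 0.16 for Batf3, -0.087 to 0.25 for Itgae, -0.13 to 0.034 for Itgax, -0.35 to 0.075 for Cd209a and -0.40 to 0.13 for Siglech. For responsive minus PBS they were -0.25 to 0.0040 for Batf3, -0.34 to 0.0038 for Itgae and -0.041 to 0.36 for Zbtb46, and 0.11 to 0.72 for the median. For nonresponsive minus PBS they were -0.34 to 1.34 for Clec9a with Clec1b, -0.28 to 0.098 for Batf3, -0.28 to 0.42 for Flt3, -0.35 to 0.050 for Zbtb46, -0.12 to 0.42 for the median and -1.07 to -0.31 for the median relative to Ptprc.

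Replicate numbers only name mice: same-numbered tumors had deviations correlated at -0.39 to 0.48, and 3 of 6 tumors in 1 comparison and 0 of 6 in the other two correlated best with their own number. With the replicate block, 0, 1 and 0 of the 9 genes were called, and the features past an unadjusted p of 0.05 were 937, 948 and 237 in place of 760, 2385 and 445, and those past an adjusted p 1, 0 and 0 in place of 16, 32 and 11. With a tumor left out, features past the unadjusted p ranged from 310 to 1426, from 1005 to 3871 and from 217 to 1860, and past the adjusted p from 0 to 32, from 7 to 49 and from 2 to 30. Without a filter they were 1081, 2879 and 812. Rescaling gave 1151, 2674 and 510, and a filter at 5 FPKM gave 568, 1831 and 269. The fit of all 9 tumors gave 782, 2057 and 463, and a pseudocount of 0.1 gave 753, 2166 and 397. Past the adjusted p, the alternatives other than the block and left-out tumors gave 8 to 18, 16 to 34 and 5 to 13. Without counts, the reads behind low values such as Siglech are unknown beyond the Cufflinks intervals, and Xcr1 and Clec9a cannot be read alone.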

Other observations

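For each gene, the 3 named entries with the highest Pearson correlation of log2(FPKM + 1) over the 9 tumors were found among about 10786 entries with at least 1 FPKM in every tumor. These are descriptions of the top of a long ranking, with no test, and all values of a tumor share its scale. Cd209a lay closest to Xdh (r = 0.980), which encodes xanthine dehydrogenase, Sirpa (0.969), a receptor of macrophages and cDC2 that is also in the cDC2 list, and Pla2g15 (0.963), a lysosomal phospholipase. Sirpa was at 29.0, 88.6 and 69.6 FPKM in PBS tumors, 156, 116 and 65.7 FPKM in nonresponsive tumors and 145, 85.5 and 99.3 FPKM in responsive tumors. Siglech lay closest to the joint entry of Gucy1a1 and Mir7010 (0.978), to Vipas39 (0.976) and to Mbp (0.975). Flt3 lay closest to Rps4l (0.956), Notch3 (0.953) and the joint entry of 5830405F06Rik, Trbv4 and Trbv5 (0.939), the last of which holds variable segments of the T cell receptor beta chain. The Clec9a and Clec1b entry lay closest to Ido2 (0.892), an enzyme of tryptophan breakdown read in liver and dendritic cells, to Dusp2 (0.866), a phosphatase of activated lymphocytes, and to the joint entry of the complement genes C4a and C4b (0.863).

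For Itgax the closest entries were Tars2 (0.888), the joint entry of Acad9 and Gm43079 (0.886) and Prkaca (0.862), and for Batf3 they were Klhdc3 (0.919), Glrx2 (0.916) and Cirbp (0.915). For Itgae they were Zfp628 (0.915), Pik3c3 (0.890) and Gfi1 (0.884), for Zbtb46 Gm37305 (0.887), Sec11c (0.876) and Angpt2 (0.876), a ligand of the endothelial receptor TIE2, and for the mixed Xcr1 entries the joint entry of 3830406C13Rik, D030051J21Rik and Gm49355 (0.966), Lrig1 (0.952) and Zfp969 (0.949).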
